A study of Mus musculus with 6 samples.

Results

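The Wnt ligands, receptors and antagonists are a set of 58 mouse genes chosen by symbol, and 56 of them could be followed among the 20259 genes of the array data. They comprise 19 Wnt ligands, 3 R-spondins, 12 Frizzled and LRP receptors, 3 LGR receptors, 9 secreted antagonists, 6 feedback and readout genes, 5 nuclear effectors and the formin gene *Daam2*. For each gene the transcript cluster with the highest mean signal was used. *Dkk1*, which encodes a secreted LRP inhibitor, and *Tcf7*, which encodes a TCF-family transcription factor, were not analysed here.

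Secreted Wnt proteins bind Frizzled receptors, in the canonical branch together with the co-receptors LRP5 and LRP6, and thereby keep β-catenin from being degraded so that it can act with LEF and TCF factors in the nucleus. R-spondins bind LGR receptors and spare Frizzleds from removal by the ubiquitin ligases RNF43 and ZNRF3, while DKK, SFRP, WIF1 and NOTUM proteins act outside the cell to limit the signal, and *Axin2* and *Nkd1* belong to a set of genes that the pathway itself switches on. In the developing cochlea, Wnt signaling is known to promote the growth of pro-sensory cells and the formation of hair cells (HCs), and a further branch of it takes part in the orientation of HC bundles.

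Cochleae of wild-type mouse embryos at E15.5 were cultured as explants with their innervating neurons, and all explants received the same N2 medium with EGF, FGF and penicillin. Control explants were kept in 0.013% DMSO, which the study calls the vehicle control. Treated explants were kept in 3.33 µM DAPT, a γ-secretase inhibitor (GSI) that blocks the cleavage of Notch receptors. The labels name DMSO for the control only. By the labels of the samples culture lasted 23 h in experiment 1, 19 h in experiment 2 and 24 h in experiment 3, whereas the study's text and the description of the series give other durations. In each of the 3 experiments 1 control pool and 1 DAPT pool of explants was digested with collagenase and dispase, the epithelium was freed from other tissue, and its total RNA was hybridised to an Affymetrix Mouse Exon 1.0 ST array. An array therefore averages several explants of mixed cell types, and fewer cells of a type and less RNA per cell cannot be told apart. The question addressed here was how the expression of Wnt pathway genes differed between DAPT and control epithelium of the same experiment.

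Values are log2 signals, so that a difference of 1 is a doubling. Levels were not compared between genes, since probes differ in brightness. The medians of the 6 arrays lay between 6.2968 and 6.3637. Of the 56 measured Wnt pathway genes 55 had a mean at or above the median of all clusters, the exception being the ligand gene *Wnt1*. So did 15659 of all 20259 genes, so this count does not set the Wnt pathway genes apart. The cochlear epithelium markers were at or above that median in 8 of 8 genes. The same held for 8 of 8 mesenchyme, 8 of 8 neuronal and 6 of 6 endothelial markers, so this cut does not tell tissues apart. Of the 8 epithelial genes *Krt8* was lower with DAPT, at -0.28, and *Fst* higher, at 0.27, at an unadjusted p under 0.05 in limma. All 8 HC markers were higher with DAPT at an unadjusted p under 0.05, and the mean log2 signal of that list was 8.51 to 8.86 in control and 9.30 to 9.74 in DAPT samples. Of the 10 supporting cell (SC) and pro-sensory markers 7 were lower, with list means of 10.33 to 10.51 in control and 9.65 to 9.81 in DAPT samples. The study lists *Sox2*, *Jag1*, *Hes5*, *Hey1*, *Hey2* and *Heyl* of these as known Notch targets that were lower on these same arrays. Their fall is therefore no independent sign of fewer SCs. The SC markers *Fgfr3*, *Slc1a3* and *S100a1* had differences of -0.07, 0.02 and 0.02. Of the 7 pericyte and smooth muscle markers 4 were lower (*Pdgfrb*, *Rgs5*, *Abcc9* and *Kcnj8*), with list means of 7.86 to 8.48 in control and 7.66 to 7.96 in DAPT samples, whereas 0 of 8 mesenchyme, 0 of 4 glia and 0 of 5 macrophage markers differed at that level. Of 6 endothelial markers only *Kdr* was higher, and of 8 genes listed as neuronal only *Isl1* was lower. The level of *Isl1* was highest in experiment 1, whereas the other 7 were lowest there, so it did not behave like the rest of its list. The part of these cell types in the results below was not tested.

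DAPT and control were compared in limma with the experiment as a block. No gene of the 20259 passed the Benjamini-Hochberg threshold of 0.05, and the lowest adjusted p among the 56 Wnt pathway genes was 0.235. At an unadjusted p under 0.05, 3 of the 56 were higher with DAPT (*Wnt2*, *Rspo2* and *Rspo3*), or 5.36%, against a background of 5.27% of all genes. At the same level 5 were lower (*Wnt7a*, *Fzd4*, *Fzd8*, *Dkk3* and *Daam2*), or 8.93%, against 2.59% of all genes. In either direction these are 8 genes, or 14.3%, against 7.86% of all genes. The share of higher genes was thus close to the background and the share of lower genes above it. The study itself names or lists *Dkk3*, *Daam2*, *Wnt7a* and *Fzd4* as lower with DAPT from these same arrays, so their count is not independent evidence of a direction. By RT-qPCR the study also reported lower *Dkk3* with DAPT, in epithelium and in sorted SCs. It further reported *Dkk3* and *Daam2* as lower in DnMAML1 mice, where Notch-driven transcription is inhibited, and higher where the Notch1 intracellular domain was overexpressed. Those measurements are not part of the array data. Without the block by experiment only *Rspo2* was higher and *Fzd4*, *Dkk3* and *Daam2* were lower at that level, with a background of 1.94% and 0.982%. Without experiment 1 the count of higher genes went from 3 to 5, with *Fzd3* and *Wif1* added, and that of lower genes from 5 to 3, with *Fzd8* and *Daam2* lost, against a background of 6.71% and 4.67%.

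The differences of the 56 genes ranged from -0.60 to 0.52, with a median of 0.04 against 0.02 over all genes. Of the 56 genes 34 had a positive and 22 a negative difference, against 11448 and 8811 of all 20259 genes. In all 3 experiments DAPT exceeded control for 18 of them, or 32.1%, against 19.1% of all genes, and control exceeded DAPT for 8, or 14.3%, against 10.5%. The 8 were *Wnt1*, *Wnt7a*, *Fzd4*, *Fzd8*, *Lrp6*, *Lgr5*, *Dkk3* and *Daam2*. All 3 DAPT arrays lay below all 3 control arrays for *Fzd4*, *Dkk3* and *Daam2*, or 5.36% of the genes against 2.35% of all genes, and above them for *Wnt10a* alone, or 1.79% against 4.94%. The study names or lists *Wnt7a*, *Fzd4*, *Dkk3* and *Daam2* as lower from these same arrays. Neither of the shares of lower genes given here is therefore independent evidence of a direction.

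**Figure D1:**
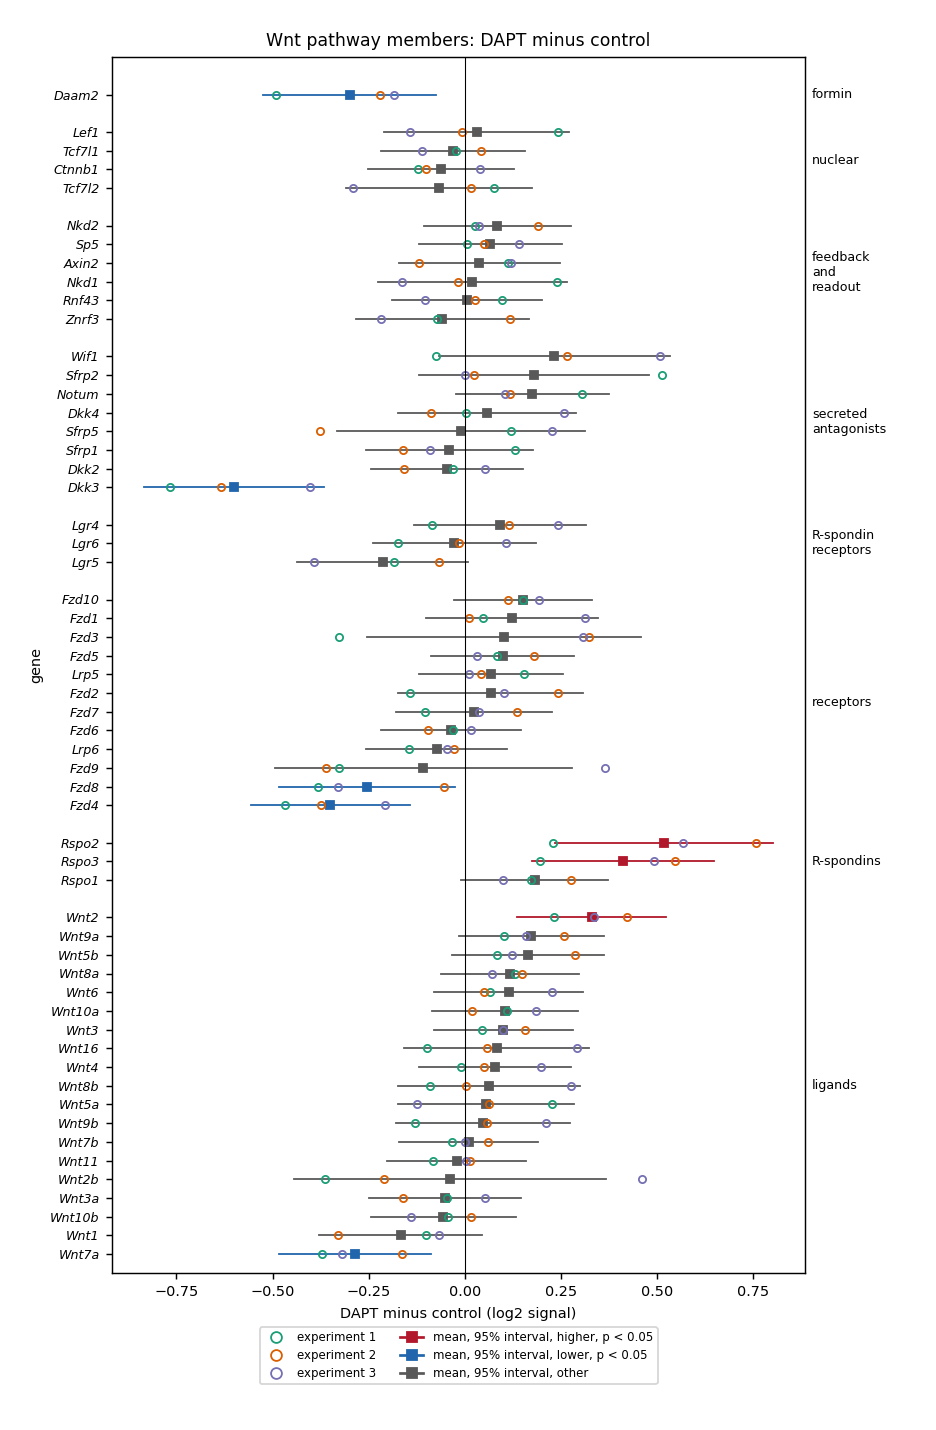
DAPT minus control in log2 signal (x axis) for the 56 measured Wnt pathway genes (y axis), grouped by role, with open circles for the 3 experiments, a square for their mean and a line for the 95% interval of limma. The 3 genes in red had an unadjusted p under 0.05 and were higher with DAPT, the 5 in blue were lower, and *Dkk3* at -0.60 and *Rspo2* at 0.52 lay farthest from 0.

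Among the ligands *Wnt2* was higher with DAPT, *Wnt7a* was lower, and the other 17 did not reach an unadjusted p of 0.05. *Wnt2*, a ligand gene known in mouse for lung and placental development, had a log2 signal of 6.51, 7.39 and 7.65 in control and 6.74, 7.81 and 7.99 in DAPT samples of experiments 1, 2 and 3. DAPT was above control in each experiment, but the groups overlapped because both arrays of experiment 1 were low. The difference was 0.33 (standard error 0.08, 95% interval 0.14 to 0.52), or 1.26-fold, with unadjusted p = 0.00601 and adjusted p = 0.363 in limma. The call needed the block (unadjusted p = 0.434 in limma without it) and experiment 2 (unadjusted p = 0.0549 without that experiment).

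*Wnt7a*, a ligand gene known for dorsoventral patterning of the limb, read 9.49, 8.89 and 8.83 in control and 9.12, 8.73 and 8.51 in DAPT samples of experiments 1 to 3. It was lower with DAPT in every experiment, with the DAPT value of experiment 1 above the controls of the other two. The difference was -0.28 (standard error 0.08, 95% interval -0.48 to -0.09), or 1.22-fold lower, with unadjusted p = 0.0126 and adjusted p = 0.435 in limma. The unadjusted p was 0.237 without the block and 0.056 without experiment 3.

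Differences of all 19 ligands ran from -0.28 to 0.33 with a median of 0.06, and 13 were positive, against 11448 of all 20259 genes. *Wnt9a*, which acts in joint and skeletal development, came next in size at 0.17 (95% interval -0.02 to 0.36, unadjusted p = 0.0647, adjusted p = 0.658 in limma), followed by *Wnt1*, a ligand gene of midbrain development, at -0.17 (95% interval -0.38 to 0.05, unadjusted p = 0.103, adjusted p = 0.713 in limma), and by *Wnt5b*, a relative of the non-canonical ligand *Wnt5a*, at 0.17 (95% interval -0.03 to 0.36, unadjusted p = 0.0874, adjusted p = 0.699 in limma). *Wnt9a* and *Wnt5b* were higher and *Wnt1* lower with DAPT in all 3 experiments without reaching the threshold. With array weights all 3 passed an unadjusted p of 0.05. *Wnt5a*, which takes part in convergent extension of the cochlear duct, went from 0.23 in experiment 1 to -0.12 in experiment 3 and had a mean difference of 0.06 (95% interval -0.17 to 0.29). *Wnt7b*, a canonical ligand gene of epithelia, had 10.42, 10.13 and 9.62 in control and 10.39, 10.19 and 9.62 in DAPT samples. Its control and DAPT arrays nearly coincided within each experiment, and the 95% interval of the difference of 0.01 was -0.17 to 0.19. *Wnt4*, a ligand gene known for kidney and female reproductive tract development, had a difference of 0.08 (95% interval -0.12 to 0.28).

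*Wnt10a*, a ligand gene of tooth and skin development, read 7.73, 7.84 and 7.69 in control and 7.84, 7.86 and 7.88 in DAPT samples. The groups did not overlap, but the highest control and the lowest DAPT array were equal to both decimals shown, and the difference of 0.10 (95% interval -0.09 to 0.29) had unadjusted p = 0.224 and adjusted p = 0.813 in limma. *Wnt2b*, a ligand gene close to *Wnt2* in sequence, moved in opposite directions, with differences of -0.36 and -0.21 in experiments 1 and 2 and 0.46 in experiment 3. Its mean of -0.04 therefore had a wide 95% interval of -0.44 to 0.37.

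The R-spondins were the role with the highest median difference, 0.41, and 3 of 3 were higher with DAPT in all 3 experiments, as were 19.1% of all genes. *Rspo2*, which encodes a secreted LGR ligand needed for limb and lung development in mouse, had a log2 signal of 10.47, 9.85 and 9.87 in control and 10.69, 10.61 and 10.44 in DAPT samples. Both control arrays of experiments 2 and 3 lay below every DAPT array, and the control of experiment 1 lay slightly above the DAPT array of experiment 3. The difference was 0.52 (standard error 0.12, 95% interval 0.23 to 0.80), or 1.43-fold, with unadjusted p = 0.00448 and adjusted p = 0.361 in limma. The unadjusted p was 0.0786 in the plain paired comparison, which keeps the pairs but pools no variances across genes, and 0.0741 in the plain one-way comparison.

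A second transcript cluster of *Rspo2*, of lower signal, read 7.14, 6.87 and 6.78 in control and 7.90, 7.17 and 6.88 in DAPT samples. It too was higher in each experiment, but the sizes came in a different order, with 0.76, 0.30 and 0.10 in experiments 1, 2 and 3 against 0.23, 0.76 and 0.57 for the brighter cluster. Its mean difference was 0.39, with an unadjusted p of 0.044 in limma over all clusters. The 2 clusters gave the same direction and did not give the same ranking of experiments.

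*Rspo3*, which encodes an R-spondin known for placental and vascular development in mouse, had 9.01, 8.19 and 8.40 in control and 9.20, 8.73 and 8.90 in DAPT samples. DAPT was higher in each experiment, although the control of experiment 1 exceeded the DAPT arrays of experiments 2 and 3. The difference was 0.41 (standard error 0.10, 95% interval 0.17 to 0.65), or 1.33-fold, with unadjusted p = 0.00557 and adjusted p = 0.363 in limma, and the unadjusted p was 0.108 without the block and 0.0639 in the plain paired comparison. *Rspo1*, which acts in ovary development, had 8.99, 8.59 and 8.63 in control and 9.16, 8.87 and 8.73 in DAPT samples, a difference of 0.18 (95% interval -0.01 to 0.37, unadjusted p = 0.058, adjusted p = 0.65 in limma).

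Marker lists of other cell types were read beside the R-spondins. Of the 8 mesenchyme markers 0 had an unadjusted p under 0.05 in limma, 4 were higher with DAPT in all 3 experiments (*Pou3f4*, *Tbx18*, *Twist1* and *Pdgfra*) and 1 was lower in all 3 (*Col3a1*), with differences from -0.20 to 0.24 and a median of 0.11. Over all genes 19.1% were higher and 10.5% lower with DAPT in all 3 experiments. The HC markers had list differences of 0.57, 0.80 and 0.90 in experiments 1, 2 and 3. The part of either cell type in the R-spondin differences was not tested.

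**Figure D2:**
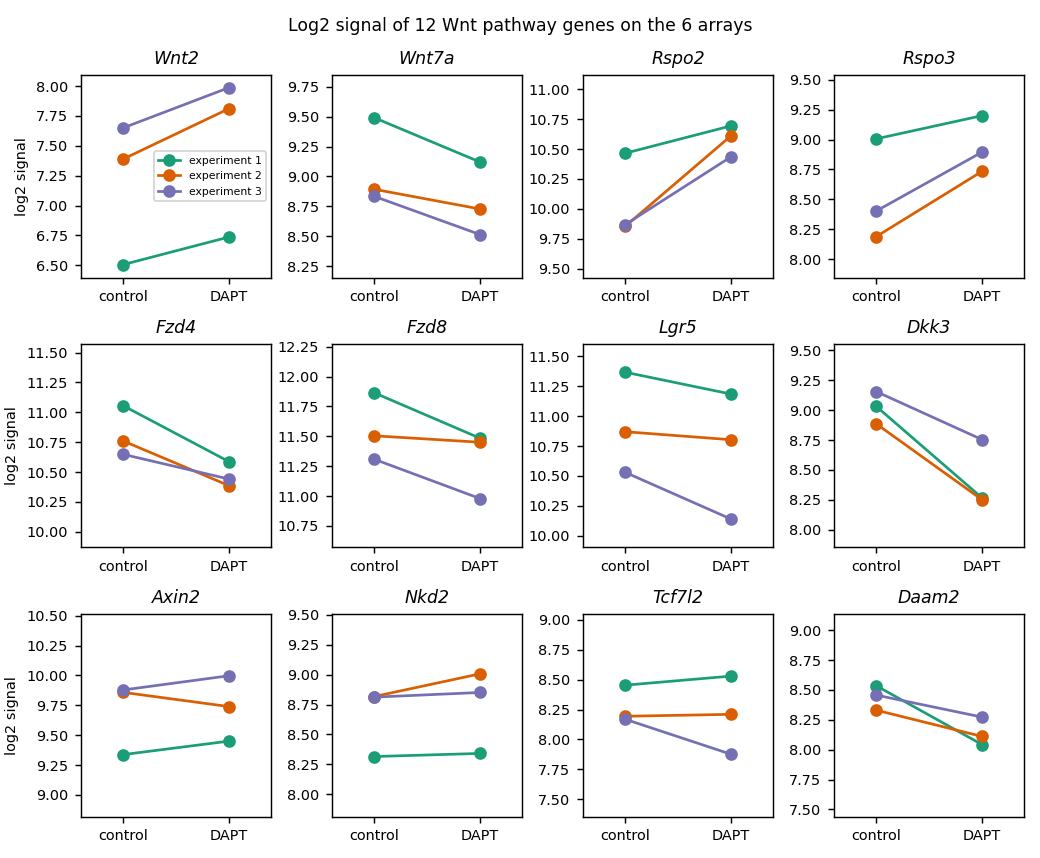
Log2 signal (y axis) of 12 Wnt pathway genes in the control and DAPT sample (x axis) of each experiment, 1 colour for each experiment, with every panel spanning the same number of log2 units. Lines of *Dkk3*, *Fzd4* and *Daam2* end below the level of every control, those of *Rspo2* and *Rspo3* go up in all 3 experiments, and those of *Axin2* and *Tcf7l2* differ in direction.

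Of the receptors 2 of 12 were lower with DAPT at an unadjusted p under 0.05, both of them Frizzleds, and 0 were higher. Over all genes 2.59% were lower and 5.27% higher at that level. *Fzd4*, a receptor for Wnts and for the ligand Norrin that is known for blood vessel growth in the retina and inner ear, had a log2 signal of 11.06, 10.76 and 10.65 in control and 10.59, 10.39 and 10.44 in DAPT samples. Every DAPT array lay below every control array. The difference was -0.35 (standard error 0.08, 95% interval -0.56 to -0.14), or 1.27-fold lower, with unadjusted p = 0.00642 and adjusted p = 0.363 in limma. The unadjusted p was 0.061 in the plain one-way comparison. The list differences in experiments 1, 2 and 3 were -0.70, -0.52 and -0.81 for the SC and pro-sensory markers, -0.20, -0.47 and -0.56 for pericytes and smooth muscle, and 0.23, 0.01 and 0.03 for endothelium, beside -0.47, -0.37 and -0.21 for *Fzd4*. The SC and pro-sensory values rest on 7 of the 10 genes, most of them Notch pathway genes, while *Fgfr3*, *Slc1a3* and *S100a1* had -0.07, 0.02 and 0.02. The part of SCs, pericytes, smooth muscle and endothelium in the *Fzd4* difference was not tested.

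*Fzd8*, another Frizzled receptor gene, read 11.86, 11.50 and 11.31 in control and 11.48, 11.45 and 10.98 in DAPT samples. It was lower in each experiment but by only 0.05 in experiment 2, and the groups overlapped. The difference was -0.25 (standard error 0.09, 95% interval -0.48 to -0.03), or 1.19-fold lower, with unadjusted p = 0.0347 and adjusted p = 0.581 in limma. Its second cluster had -0.37 with an unadjusted p of 0.161 over all clusters, a mean set by experiment 1, where the difference was -1.02 against -0.01 and -0.07 in the others. The unadjusted p of *Fzd8* was 0.22 without the block, 0.127 without experiment 1 and 0.132 without experiment 3, and 0.128 in the plain paired comparison.

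The remaining Frizzleds and LRPs had differences from -0.11 to 0.15, none at an unadjusted p under 0.05 in limma. *Fzd10* was highest at 0.15 (95% interval -0.03 to 0.33, unadjusted p = 0.0825, adjusted p = 0.691 in limma) and was higher with DAPT in all 3 experiments. *Fzd1*, *Fzd2* and *Fzd7*, a closely related trio of Frizzleds, had 0.12, 0.07 and 0.02. The co-receptor genes *Lrp5* and *Lrp6* had 0.07 (95% interval -0.12 to 0.26) and -0.07 (95% interval -0.26 to 0.11). *Fzd3* and *Fzd6*, known for their joint part in HC orientation, had 0.10 and -0.04.

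*Fzd3* differed between experiments, with 11.89, 11.44 and 11.21 in control and 11.56, 11.76 and 11.52 in DAPT samples. DAPT was lower by 0.33 in experiment 1 and higher by 0.32 and 0.31 in experiments 2 and 3, which left a 95% interval of -0.26 to 0.46. *Fzd9* showed a different split, with differences of -0.33 and -0.36 in experiments 1 and 2 and 0.37 in experiment 3. The means of these genes, 0.10 and -0.11, thus do not describe any single experiment.

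Of the LGR receptors of R-spondins none passed an unadjusted p of 0.05. *Lgr5*, a Wnt target gene expressed by SCs and pro-sensory cells, had 11.37, 10.87 and 10.53 in control and 11.19, 10.80 and 10.14 in DAPT samples. It was lower in each experiment and its groups overlapped widely, since the level went down from experiment 1 to 3 in both groups. The difference was -0.21 (standard error 0.09, 95% interval -0.44 to 0.01, unadjusted p = 0.0575, adjusted p = 0.65 in limma). *Lgr4* and *Lgr6*, the other LGR genes that bind R-spondins, had 0.09 (95% interval -0.13 to 0.32) and -0.03 (95% interval -0.24 to 0.18). The SC and pro-sensory markers had list differences of -0.70, -0.52 and -0.81 in experiments 1 to 3, beside -0.18, -0.07 and -0.39 for *Lgr5*. Those list values rest on 7 of the 10 genes (*Sox2*, *Jag1*, *Hes5*, *Hey1*, *Hey2*, *Heyl* and *Prox1*), most of them Notch pathway genes, while *Fgfr3*, *Slc1a3* and *S100a1* had -0.07, 0.02 and 0.02. The part of SCs in the *Lgr5* difference was not tested.

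Among the secreted antagonists *Dkk3* was lower with DAPT and no other gene of the 8 measured reached an unadjusted p of 0.05. *Dkk3* encodes a divergent Dickkopf protein, whose action on Wnt signaling is less settled than that of DKK1. Its log2 signal was 9.03, 8.89 and 9.16 in control and 8.27, 8.25 and 8.75 in DAPT samples. All DAPT arrays lay below all control arrays, by 0.77, 0.64 and 0.40 in experiments 1, 2 and 3. The difference was -0.60 (standard error 0.09, 95% interval -0.83 to -0.37), or 1.52-fold lower, with unadjusted p = 0.000819 and adjusted p = 0.235 in limma, the lowest p of the 56 genes. It stayed below an unadjusted p of 0.05 in all 19 alternatives computed for it, with values from -0.77 to -0.52.

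Counting *Dkk3*, 4 of the 8 antagonists had a positive and 4 a negative difference. *Wif1*, which encodes a secreted Wnt-binding protein, had 7.65, 7.86 and 8.18 in control and 7.58, 8.13 and 8.69 in DAPT samples. DAPT was lower in experiment 1 and higher in the others, by 0.27 and 0.51, and the mean of 0.23 had a 95% interval of -0.07 to 0.53 (unadjusted p = 0.107, adjusted p = 0.719 in limma). *Notum*, which encodes an enzyme that removes the lipid from Wnts, was higher in all 3 experiments, at 0.18 (95% interval -0.02 to 0.38, unadjusted p = 0.0741, adjusted p = 0.676 in limma).

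*Sfrp2*, a gene for a secreted Frizzled-related protein, owed its mean of 0.18 to experiment 1, where DAPT was higher by 0.51, against 0.03 and 0.001 in experiments 2 and 3. *Sfrp1* and *Sfrp5*, of the same family, had -0.04 and -0.01, and *Dkk2* and *Dkk4*, of the DKK1 family, had -0.05 and 0.06. Their 95% intervals all held 0, the widest being that of *Sfrp5*, -0.33 to 0.31.

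The ligands and antagonists were set beside the genes that report pathway activity. Of 9 target readouts (*Axin2*, *Lgr5*, *Nkd1*, *Sp5*, *Lef1*, *Tcf7*, *Rnf43*, *Znrf3* and *Notum*) 8 were measured, and 0 reached an unadjusted p of 0.05 in limma, with a lowest adjusted p of 0.65. Their differences ran from -0.21 to 0.18 with a median of 0.03, against 0.02 over all genes. Without *Lgr5*, which is also a gene of SCs, the 7 others ran from -0.06 to 0.18.

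*Axin2*, a scaffold gene of the β-catenin destruction complex and the most used readout of the pathway, had 9.34, 9.86 and 9.88 in control and 9.45, 9.74 and 10.00 in DAPT samples. DAPT was higher by 0.11 and 0.12 in experiments 1 and 3 and lower by 0.12 in experiment 2. The mean difference was 0.04 (standard error 0.08, unadjusted p = 0.676, adjusted p = 0.962 in limma). Its 95% interval, -0.17 to 0.25, leaves room for changes of that size in either direction.

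*Nkd2*, which encodes a Dishevelled-binding inhibitor, had the largest difference of the 6 feedback and readout genes. It read 8.32, 8.82 and 8.81 in control and 8.34, 9.01 and 8.85 in DAPT samples, a difference of 0.08 (95% interval -0.11 to 0.28, unadjusted p = 0.318, adjusted p = 0.863 in limma). DAPT was higher in each experiment by 0.03 to 0.19, and the groups overlapped. Its relative *Nkd1* had 0.02 (95% interval -0.22 to 0.27), with 0.24 in experiment 1 and -0.16 in experiment 3. The ubiquitin ligase genes *Rnf43* and *Znrf3*, whose products remove Frizzleds, had 0.01 (95% interval -0.19 to 0.20) and -0.06 (95% interval -0.28 to 0.17).

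*Sp5*, a gene for a zinc finger repressor and a direct target of β-catenin in mouse, had 8.43, 8.34 and 8.38 in control and 8.44, 8.39 and 8.53 in DAPT samples. The arrays lay close together, and the difference was 0.07 (95% interval -0.12 to 0.25). Promoter windows, 250 bases before to 50 after a RefSeq start in build GRCm38.p6, were found for 38 of the 56 genes. The TCF core letters CTTTGA or CTTTGT (on either strand, thus also TCAAAG or ACAAAG) occurred in windows of 11 of the 38 genes and in 31.2% of all 32851 windows. A gene counted if any of its windows held a match, while the share is of single windows, so these are unlike measures. The *Sp5* window is shown because it held 5 of them, a number reached or passed by 12 of all windows (0.0365%) and by no other of the 38 genes. In its sequence, at chr2:70474673-70474972 on the plus strand, capitals mark the TCF letters and also TTCCCA, the reverse of the RBPJ core TGGGAA, which occurred 2 times.
Sp5: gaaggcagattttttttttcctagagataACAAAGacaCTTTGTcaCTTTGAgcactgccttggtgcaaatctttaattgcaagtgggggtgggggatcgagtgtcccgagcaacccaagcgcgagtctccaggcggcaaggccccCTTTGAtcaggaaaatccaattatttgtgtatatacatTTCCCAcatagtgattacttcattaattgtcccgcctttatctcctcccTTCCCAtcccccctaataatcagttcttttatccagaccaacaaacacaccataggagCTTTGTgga
The letters are those of 1 reference window, and a match does not show that a factor was bound there.

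The nuclear genes gave differences from -0.07 to 0.03. *Tcf7l2*, which encodes a TCF factor, had the largest in size, with 8.45, 8.19 and 8.17 in control and 8.53, 8.21 and 7.88 in DAPT samples. The sign differed between experiments, with 0.08 and 0.02 in experiments 1 and 2 and -0.29 in experiment 3. Its mean was -0.07 (95% interval -0.31 to 0.17, unadjusted p = 0.523, adjusted p = 0.935 in limma). *Ctnnb1*, the gene of β-catenin, had -0.06 (95% interval -0.25 to 0.13). *Lef1*, a LEF/TCF factor that is also a target gene, had 0.03, with 0.24 in experiment 1 and -0.14 in experiment 3.

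*Daam2*, which encodes a formin that binds Dishevelled and links Wnt signals to actin, was lower with DAPT. Its log2 signal was 8.54, 8.33 and 8.46 in control and 8.04, 8.11 and 8.27 in DAPT samples. All DAPT arrays lay below all control arrays. The difference was -0.30 (standard error 0.09, 95% interval -0.52 to -0.07), or 1.23-fold lower, with unadjusted p = 0.0177 and adjusted p = 0.474 in limma. It was largest in experiment 1, at -0.49 against -0.22 and -0.18, and without that experiment the difference was -0.20 with an unadjusted p of 0.0585 in limma. In the plain paired comparison its unadjusted p was 0.0912.

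DAPT acts on Notch, whose nuclear partner is RBPJ, so the RBPJ core letters TGGGAA (or TTCCCA on the other strand) were looked for in the same windows. They occurred in windows of 9 of the 38 genes and in 25.6% of all windows, which are unlike measures as for the TCF letters. Of the 8 genes with an unadjusted p under 0.05, *Wnt2*, *Wnt7a*, *Fzd4* and *Daam2* had a window, and *Daam2* alone held the letters. Its window, at chr17:49564288-49564587 on the minus strand, is shown for that reason, with the match in capitals at base 112 of 300.
Daam2: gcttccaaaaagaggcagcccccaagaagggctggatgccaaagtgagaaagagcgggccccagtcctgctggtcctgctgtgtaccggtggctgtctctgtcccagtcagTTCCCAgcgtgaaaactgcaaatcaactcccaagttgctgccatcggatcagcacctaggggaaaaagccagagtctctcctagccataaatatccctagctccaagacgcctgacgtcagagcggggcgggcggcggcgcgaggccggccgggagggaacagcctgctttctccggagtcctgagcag
The TCF letters occurred in 0 of these 4 windows.

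For most genes on the arrays, and likewise for most of the 56, the 3 experiments differed from each other by more than DAPT differed from control. The range of the 3 experiment means exceeded the size of the DAPT difference for 45 of the 56 genes, or 80.4%, against 85.9% of all genes. It was 1.23 for *Sfrp5*, 1.20 for *Wnt2*, 0.94 for *Lgr5*, 0.82 for *Wif1*, 0.78 for *Wnt7b* and 0.72 for *Fzd7*, whose DAPT differences were between -0.21 and 0.33. *Dkk3*, *Rspo2*, *Fzd4* and *Daam2* were among those on the other side, with ranges of 0.39, 0.43, 0.28 and 0.14 below the size of their DAPT differences.

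**Figure D3:**
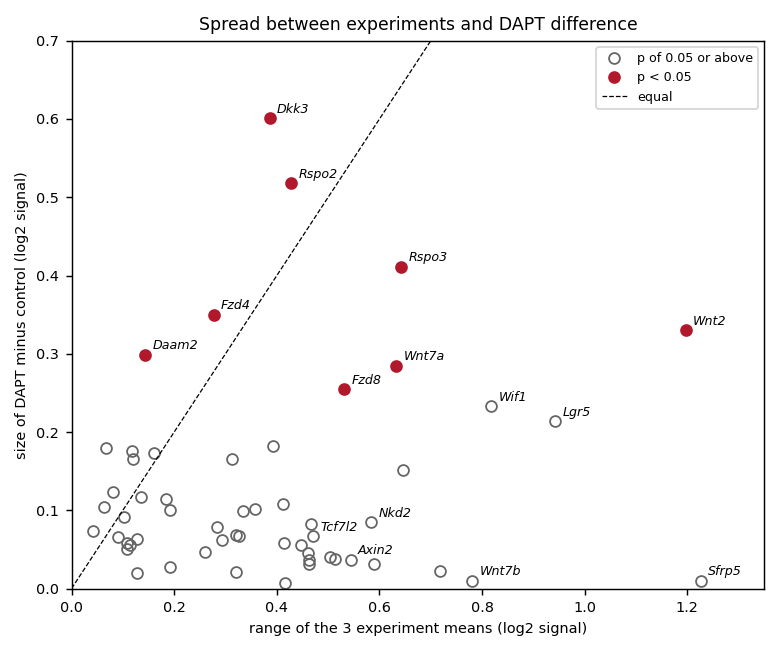
Range of the 3 experiment means (x axis, log2 signal) and size of DAPT minus control (y axis, log2 signal) for each of the 56 genes, with filled points for an unadjusted p under 0.05 and a dashed line where both are equal. *Dkk3*, *Rspo2*, *Fzd4* and *Daam2* lie above the line, while *Wnt2* with a range of 1.20 and *Lgr5* with 0.94 lie far to the right of it.

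The experiment means went in opposite orders for different genes. *Axin2* had means of 9.39, 9.80 and 9.94 in experiments 1, 2 and 3, *Wnt2* had 6.62, 7.60 and 7.82, and *Wif1* and *Fzd10* were also lowest in experiment 1 and highest in experiment 3. *Lgr5*, with 11.28, 10.84 and 10.33, went the other way, as did *Wnt7b* with 10.41, 10.16 and 9.62 and *Fzd7* with 10.94, 10.57 and 10.23. In all, experiment 1 was highest for 26 and lowest for 18 of the 56 genes, against 7194 and 8179 of all 20259 genes. These are descriptions of 3 experiments, with no test.

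Markers of other cell types varied over the experiments too. The list means of mesenchyme were 9.08, 9.70 and 10.13, those of endothelium 7.37, 8.15 and 8.46 and those of neurons 7.92, 8.61 and 8.67, in the order seen for *Axin2* and *Wnt2*. Experiment 1 was lowest for 8 of 8 mesenchyme, 6 of 6 endothelial and 7 of 8 neuronal markers, while the order of experiments 2 and 3 differed within each list. The list means of the cochlear epithelium were 11.27, 11.04 and 10.66, in the order seen for *Lgr5*, *Wnt7b* and *Fzd7*. Experiment 1 was highest for 5 of its 8 genes. Glia list means were 9.80, 9.99 and 9.72, in neither order. Culture time by the labels was 23, 19 and 24 h, and 1 pair of arrays stands for each duration, so that culture time and experiment cannot be told apart. The part of tissue makeup in the levels of *Axin2*, *Lgr5* and the others was not tested.

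**Figure D4:**
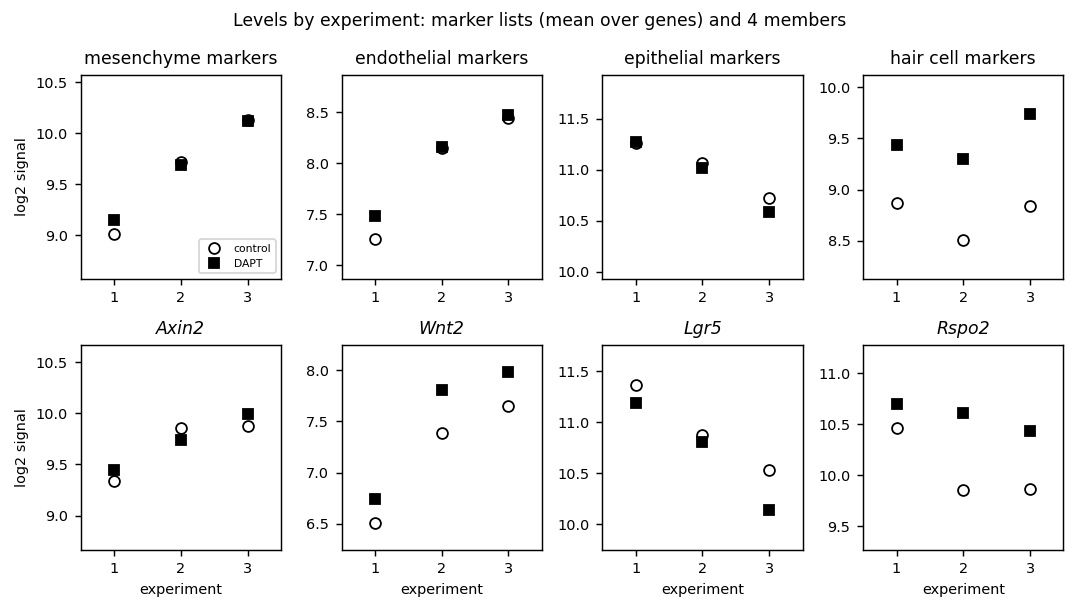
Log2 signal (y axis) in experiments 1, 2 and 3 (x axis) for 4 marker lists (mean over the genes of the list) and for *Axin2*, *Wnt2*, *Lgr5* and *Rspo2*, with open circles for control and filled squares for DAPT. Mesenchymal and endothelial markers, *Axin2* and *Wnt2* were lowest in experiment 1, and epithelial markers and *Lgr5* were lowest in experiment 3. DAPT lay above control in every experiment for HC markers, *Wnt2* and *Rspo2*, and below it for *Lgr5*.

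Of 62 other genes of the pathway 57 were measured, and their differences ran from -0.55 to 0.26 with a median of -0.03. At an unadjusted p under 0.05 in limma 1 was higher and 2 were lower, where the background was 5.27% and 2.59% of all genes, so neither count is a result about these genes as a group. The 2 lower genes belong to the destruction complex that degrades β-catenin, of which 7 of 8 listed genes were measured. *Gsk3b*, its kinase gene, read 9.11, 9.37 and 10.25 in control and 8.86, 8.72 and 9.49 in DAPT samples, lower by a difference of -0.55 (standard error 0.12, unadjusted p = 0.00333, adjusted p = 0.335 in limma). *Apc*, its scaffold gene, had -0.25 (standard error 0.09, unadjusted p = 0.032, adjusted p = 0.564 in limma). *Celsr3*, a planar polarity cadherin gene, was higher at 0.26 (standard error 0.10, unadjusted p = 0.0428, adjusted p = 0.612 in limma). *Gsk3b* and *Apc* were lower in every experiment, and the groups of *Gsk3b* overlapped. Other readouts of the pathway, such as *Myc*, *Ccnd1* and *Cd44*, were among 8 further targets, of which 0 reached that level. Their differences ran from -0.19 to 0.07 with a median of -0.10, and 7 of the 8 were negative. Lower in all 3 experiments were 3 of them, as were 10.5% of all genes. The 8 target readouts measured above leaned the other way, with 6 positive differences and a median of 0.03.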

How the data were processed

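RNA from 6 pools (3 experiments, each with 1 control and 1 DAPT pool) was hybridised to Mouse Exon 1.0 ST arrays of Affymetrix. According to the study's methods and the submitters' processing notes (Partek, RMA, mm9), the authors applied RMA with quantile normalization, and each deposited value is the log2 signal of a transcript cluster. RMA makes the arrays alike in distribution and gives no depth, so the number of arrays limits the precision. Of 115830 clusters 25539 had 1 gene in the array's probe-to-gene table, 2300 several and 87991 none, and 24941 received a current symbol by gene identifier from a GRCm38.p6 table. Each of 20259 genes was represented by its brightest cluster, by mean over all 6 arrays. Of the genes studied, 5 had several clusters.

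DAPT minus control was fitted with limma 3.58.1 in R 4.3.3 (lmFit, eBayes) on all 20259 genes, blocked by experiment, and p-values were adjusted by Benjamini-Hochberg. Called genes had an unadjusted p under 0.05. The block follows the design of 1 control and 1 DAPT pool per experiment. The replicate numbers pair the samples. Deviations from the group means correlated across genes at 0.434 to 0.555 within experiments and at most at 0.00924 between them (genes are not independent replicates). Centring each group of 3 arrays ties these values together, since positive ones within experiments push those between them down. The contrast is therefore a description and no test of the pairing. An exact test on 3 pairs cannot give a two-sided p below 0.25, so none is reported. The fit was tested on simulated data. Python 3.11.15, pandas 2.3.3, numpy 2.4.6 and matplotlib 3.10.9 were used for tables and plots.

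Values on every array are given for genes with an unadjusted p under 0.05, those the study names or lists as lower, *Axin2*, *Lgr5* and the largest difference in each role. *Wnt7b*, *Wnt10a*, *Rspo1*, *Fzd3*, *Wif1*, *Sp5* and *Gsk3b* were added after their values had been seen. The genes, roles, marker lists and tests were chosen with earlier results of these data known. Alternatives left out the block, the pooling of variances, an experiment or an array, and changed the prior, normalization, filter and choice of cluster. Promoter windows came from RefSeq.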

Additional observations from a re-analysis of the deposited data

How the results depend on the processing

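Shares of all genes stand in brackets, higher first. Dropping the block by experiment gave 1 higher and 3 lower genes in limma (1.94% and 0.982%), and the plain one-way comparison, of the kind that the study's results text names, gave 0 and 2 (2.42% and 1.06%), in place of 3 and 5 (5.27% and 2.59%). The plain paired comparison gave 3 higher genes, *Wnt2*, *Wnt8a* and *Fzd10*, and 3 lower ones, *Wnt7a*, *Fzd4* and *Dkk3* (4.5% and 2.22%), so *Rspo2*, *Rspo3*, *Fzd8* and *Daam2* were lost. Array weights gave 7 higher and 5 lower genes (8.04% and 4.51%). Leaving out 1 experiment gave 2 to 5 higher genes (3.49% to 6.71%) and 3 to 5 lower ones (1.8% to 4.67%). Leaving out 1 array without the block gave 0 to 3 higher (1.31% to 2.65%) and 1 to 3 lower genes (0.671% to 2.03%). The sign turned for *Wnt2* (-0.00773) and *Lgr5* (0.00892) without the block and without control 1, and for *Lgr5* (0.0714) without the block and without DAPT 3. *Axin2* turned negative with array weights (-0.0235), without experiment 1 (-0.000305) or 3 (-0.00326) but not 2 (0.116), and without the block and control 1 (-0.14) or DAPT 3 (-0.0968). *Nkd2* turned negative without the block and control 1 (-0.0816) or DAPT 2 (-0.0522). *Tcf7l2* turned positive without experiment 3 (0.0463) and without the block and control 1 (0.0243) or DAPT 3 (0.098). The cause of these changes was not tested. Of the 44 genes without values on every array by the rule, 28 changed sign in at least 1 of 19 alternatives and 10 reached an unadjusted p under 0.05 in at least 1. The adjusted threshold was passed by 0 of all genes in the blocked fit, by 30 with array weights, and by 6 each with a trend and robust prior, with either filter on dim genes and with the mean of all clusters. Only 3 pairs stand behind each difference, which limits its precision to the intervals given.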
